A study of Mus musculus with 24 samples.

Results

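The 4 arms of the neuronal miRNAs miR-124 and miR-9 (mmu-miR-124-3p, mmu-miR-124-5p, mmu-miR-9-5p and mmu-miR-9-3p) were followed across mouse ocular and brain tissues. They were chosen by name, as 4 of the 1881 mouse miRNAs on the array. RNA came from 8 tissues (cornea, iris, lens, retina, choroid, sclera, SCN and LGN) of C57BL/6J male mice in 3 groups. The normal group wore no lens, the lens-induced group had a −30 D lens fixed on the right eye at 3 weeks of age and kept for 3 weeks, and the 0 D group is given by its labels as a 0 D lens without further detail. Each of the 24 arrays holds 1 tissue of 1 group. For the ocular tissues of the normal and the −30 D groups, RNA of 3 mice was mixed for each array, and nothing in the sources used here describes the pooling of the 0 D group or of the brain regions. The labels do not spell out SCN and LGN. The choroid of the labels is the RPE/choroid of the study, that is, the choroid with the retinal pigment epithelium. The lens is below always the tissue, and the worn lens is named by its power.

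miRNAs are cut from a hairpin precursor, and the arm on its 5′ side (5p) and that on its 3′ side (3p) can both be loaded into the silencing complex. miR-124 is a well known miRNA of differentiated neurons, and its 3p arm represses non-neuronal transcripts such as Ptbp1, a splicing regulator. miR-9 is expressed in neural progenitors and in neurons, and both of its arms are known to act on the REST repressor complex, which silences neuronal genes outside neurons. In the eye, the retina is the neural tissue, while the cornea, iris, lens, choroid and sclera hold few or no neuronal cell bodies.

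The mature arms of miR-9 are shown because the array measures both of them and because they have different seeds (bases 2 to 8, in capitals), so that they are expected to pair with different targets. RefSeq gives them as follows.
mmu-miR-9-5p: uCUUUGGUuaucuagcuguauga
mmu-miR-9-3p: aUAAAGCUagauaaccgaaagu
Among 1608 miRNAs of the array with a RefSeq sequence, 0 others carried either seed.

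The 3 miR-9 hairpins of RefSeq (build GRCm38.p6) are shown with both arms in capitals, since all 3 hold the same arms and differ outside them. A signal of either arm on the array can therefore not be assigned to 1 of the 3 loci. Mir9-1 is at chr3:88215598-88215686 within Gm3764, Mir9-2 at chr13:83738814-83738885 within C130071C03Rik, and Mir9-3 at chr7:79505264-79505353 within Mir9-3hg, all on the plus strand.
Mir9-1: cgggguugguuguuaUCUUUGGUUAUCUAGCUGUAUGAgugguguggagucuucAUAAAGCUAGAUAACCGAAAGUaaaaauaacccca
Mir9-2: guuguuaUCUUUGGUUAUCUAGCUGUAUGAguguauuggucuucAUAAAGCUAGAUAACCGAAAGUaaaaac
Mir9-3: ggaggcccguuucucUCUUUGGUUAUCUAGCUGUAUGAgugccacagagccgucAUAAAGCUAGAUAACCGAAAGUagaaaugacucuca
The miR-124 arms come from the loci Mir124a-1, Mir124a-2 and Mir124a-3.

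The signal of a miRNA is the sum of its background-subtracted probe signals above 3 probe errors. Arrays were brought to 1 scale by the 75th percentile of the signals of 79 miRNAs that every array detected. It has no absolute unit, and since probes of different miRNAs bind with different strength, a level can be compared between tissues for 1 arm but not between arms. Each ± on a single array is the probe error of that array. Each of the 4 arms was read by 2 probes of 15 spots, and all 4 passed the filter of detection on at least 3 arrays, as did 352 of the 1881 miRNAs. Between 129 and 249 miRNAs were detected per array, 0 spots were saturated, and the number of arrays limits the precision. Markers of cell types were read beside the labels of the tissues. miR-183-5p of photoreceptors was between 8510 and 9710 in the retina, miR-205-5p of surface epithelium between 895 and 1108 in the cornea, miR-184-3p of cornea and lens between 29710 and 36854 in the cornea and between 11130 and 16390 in the lens, miR-211-5p of pigment cells between 772 and 906 in the iris and miR-199a-3p of mesenchyme between 832 and 929 in the sclera. miR-219a-2-3p of oligodendrocytes was detected in the SCN and the LGN and not in the 6 ocular tissues. miR-338-3p, the other marker of oligodendrocytes, was also detected in all 6 ocular tissues, in the cornea on 2 of 3 arrays. It was between 45.4 and 60.4 in the retina, between 168 and 251 in the SCN and between 418 and 643 in the LGN. miR-204-5p, the other marker of pigment cells, was lower in the iris, between 288 and 304, than in the other ocular tissues, and highest in the lens, between 1198 and 1349. In the lens, miR-133a-3p of striated muscle was between 267 and 315.

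miR-124-3p was detected on 24 of 24 arrays and was brightest in the retina. Its scaled signal there was 11409 ± 1015 in the normal group, 10441 ± 926 in the 0 D group and 10202 ± 911 in the −30 D group. In the same order of groups, it was 1627 ± 147, 2111 ± 189 and 2031 ± 182 in the LGN. In the SCN it was 1499.9 ± 135, 1396 ± 125 and 1427 ± 129. The 3 retina arrays lay above all 6 brain arrays, while the ranges of SCN and LGN were separate but close.

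Outside the neural tissues, miR-124-3p was highest in the choroid, with 985 ± 89.1, 724 ± 65.9 and 570.2 ± 51.8. In the sclera it was 587 ± 53.7, 346 ± 31.7 and 321 ± 29.5. In the lens it was 105 ± 11.4 in the normal group, 309 ± 28.7 in the 0 D group and 390.3 ± 36.5 in the −30 D group, which is the widest relative spread of this arm in any tissue (a coefficient of variation of 54.8%, against 5.98% in the retina). It was dimmest in the iris, with 33.4 ± 3.48, 11.6 ± 1.37 and 23.5 ± 2.58, and the cornea, with 20.2 ± 4.53, 26.2 ± 4.14 and 24.3 ± 3.60.

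miR-124-5p, the other strand of the same hairpins, was detected in the retina on 3 of 3 arrays and on 1 of the 21 arrays of other tissues. Its retina signals were 44.1 ± 3.64, 50.6 ± 4.0 and 38.7 ± 3.26. The single other detection was in the 0 D LGN, at 3.77 ± 1.08. The limit of an array is the most that an undetected arm could have held there, with both probes at 3 errors. A signal of 1 passing probe can be detected below it, as here, where the limit of the array was 6.24. The limits of the other 2 LGN arrays, 5.69 and 7.42, lay above the value of 3.77, so that it does not set the 0 D array apart from them.

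miR-9-3p was detected on 19 of 24 arrays, with its highest signals in the brain regions. In the SCN it was 1327 ± 103, 1417 ± 110 and 1411 ± 110. In the LGN it was 1049 ± 81.6, 1199 ± 92.7 and 1279 ± 99.7. The retina gave 794 ± 61.4, 868 ± 67.1 and 746 ± 57.9. All 6 brain arrays lay above the 3 retina arrays, an order opposite to that of miR-124-3p.

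The choroid and the sclera held a lower miR-9-3p signal that varied little between the groups. It was 191 ± 15, 153 ± 12.1 and 166 ± 13.1 in the choroid and 110.5 ± 8.80, 112 ± 9.20 and 102 ± 8.35 in the sclera. In the iris it was 19.2 ± 2.02, 5.13 ± 0.889 and 9.17 ± 1.40. In the cornea it was detected on the −30 D array alone, at 19.9 ± 3.32, and the limits of the other 2 cornea arrays were 24.4 and 19.7. It was not detected in the lens, with limits between 22.4 and 27.8.

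miR-9-5p was detected on 12 of 24 arrays, those of the SCN, LGN, retina and choroid. In the SCN it was 73.6 ± 6.21, 89.8 ± 7.23 and 74.5 ± 6.19. In the LGN it was 61.0 ± 4.97, 77.2 ± 6.27 and 72.4 ± 5.94. In the retina it was 55.2 ± 4.58, 67.0 ± 5.42 and 51.6 ± 4.33. The range of the LGN overlapped both that of the SCN and that of the retina, while the SCN arrays all lay above the retina arrays. In the choroid it was 7.88 ± 1.49, 6.47 ± 1.67 and 5.76 ± 1.40, of which only 1 of its 2 probes was above 3 errors. It was undetected in the sclera (limits between 7.17 and 11.3), the iris (4.35 to 6.37), the cornea (15.9 to 24.2) and the lens (21.9 to 27.4). The limits of the cornea and lens arrays, and of the 0 D and −30 D sclera arrays (11.3 and 10.2), lay above the choroid signals. A level like that of the choroid may thus have gone undetected there.

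**Figure D1:**
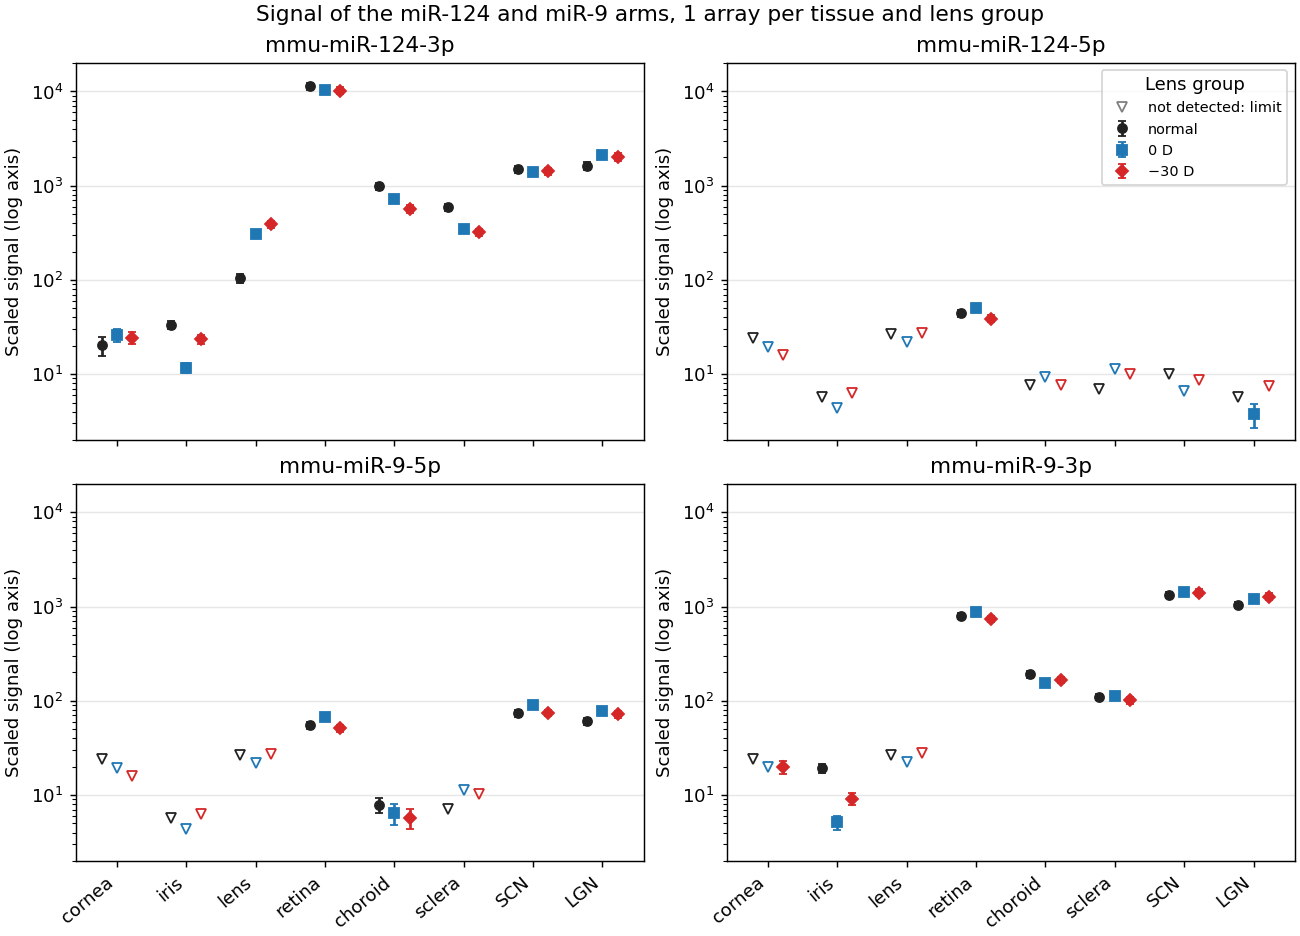
Scaled signal (log axis) of the 4 arms in the 8 tissues, 1 point per array with its probe error; colors give the lens group, and open triangles mark the limit of an array that did not detect the arm. The 3 retina arrays of miR-124-3p sit between 10202 and 11409, above all others, whereas miR-9-3p is highest in the SCN and the LGN.

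The first comparison asked whether the arms were higher in neural tissue (retina, SCN and LGN, 9 arrays) than in the cornea, iris, lens, choroid and sclera (15 arrays). miR-9-3p, miR-124-3p and miR-9-5p were higher in neural tissue, where 37.5% of the 352 miRNAs tested were higher. The log2 difference was 5.33 ± 0.19 (SE) for miR-9-3p, 4.59 ± 0.21 for miR-124-3p and 3.99 ± 0.15 for miR-9-5p, with limma's Benjamini-Hochberg adjusted p of 1.5e-14, 4.4e-13 and 2.9e-14. miR-124-5p passed the filter only through its 3 retina arrays and was undetected on 5 of the 6 brain arrays, so that its fitted value of 0.77 is no measure of neural tissue. In these fits an undetected arm took the floor of its own array, that is, the dimmest signal detected there, so that the values of miR-9-5p, miR-9-3p and miR-124-5p depend on that floor. The median of all miRNAs was −0.38 here and 0.31 without scaling, and relative to it the arms stood at 5.71 (miR-9-3p), 4.97 (miR-124-3p) and 4.37 (miR-9-5p) under both. The value of miR-124-5p was −0.80 with quantile normalization and 0.028 with normexp background correction. The 3 groups stand in for replicates of a tissue. The p-values use the spread left over all 8 tissues once tissue and lens group are fitted. That spread also holds any difference between lens groups that is not the same in all tissues.

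Lower bounds avoid the floor. The miR-9-3p signal was at least 54.2-fold higher in the SCN and at least 31.4-fold higher in the retina than in the lens. miR-9-5p was at least 14.6-fold higher in the SCN and at least 10.6-fold higher in the retina than in the iris. miR-124-5p was at least 8.17-fold higher in the retina than in the iris, at least 5.28-fold higher than in the SCN and at least 8.15-fold higher than in the LGN.

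The retina was then compared with the 2 brain regions. miR-124-3p was higher in the retina by 2.69 ± 0.36 on the log2 scale, a 6.43-fold difference (adjusted p = 3e-06). For miR-124-5p, which only the retina brought past the filter and which stood at the floor on 5 of 6 brain arrays, the fitted value ran from 1.13 with normexp to 7.91 with undetected arms at 0.1 and was 1.95 with the printed total signal (adjusted p = 0.26), so that the bounds above are its measure. Of the 352 miRNAs, 24.1% were higher and 38.9% were lower in the retina. The miR-9 arms did not pass the threshold. miR-9-3p differed by −0.67 ± 0.32 (adjusted p = 0.082, 95% interval −1.35 to 0.01) and miR-9-5p by −0.37 ± 0.26 (adjusted p = 0.24, interval −0.91 to 0.17). These differences were the same, but called, in a fit to the 9 neural arrays alone, chosen after seeing the data, in which no floor of another tissue enters the spread (adjusted p = 0.0009 for miR-9-3p and 0.020 for miR-9-5p). Without scaling, the difference of miR-9-5p was 0.031, and relative to the median of all miRNAs (−0.27, or 0.13 without scaling) it was −0.09 and that of miR-9-3p −0.40 under both.

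Between the SCN and the LGN, 0 of the 4 arms differed by limma, at an adjusted and at an unadjusted p of 0.05, where 40.3% of all miRNAs were called in either direction. The difference of SCN over LGN was −0.41 for miR-124-3p (95% interval −1.28 to 0.46), 0.24 for miR-9-3p (−0.55 to 1.03) and 0.18 for miR-9-5p (−0.45 to 0.80). Both miR-9 values had the opposite sign with no scaling, at −0.23 and −0.30. The median of all miRNAs in this comparison moved with the scaling, from 0.36 to −0.11 without scaling, and miR-124-3p, miR-9-5p and miR-9-3p had differences of −0.77, −0.18 and −0.12 relative to it under both.

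All 28 pairs of tissues were compared for each arm. A pair could be called where the higher tissue had detected the arm on 3 of 3 arrays and stood above the limit of the other, which held for 79 of 112 combinations of arm and pair. Of these, 68 were called, while 81.5% of such pairs were called over all miRNAs. For miR-124-3p, 24 of 28 pairs differed, and the order was retina, LGN, SCN, choroid, sclera, lens, cornea and iris. Its neighbours LGN and SCN (limma adjusted p = 0.38) and choroid and sclera (0.067) were not called. Nor were sclera and lens (0.098) or cornea and iris (0.73), and SCN and choroid stood just inside the threshold (0.047). The fit takes the spread of an arm over all 8 tissues, so these p-values do not rest on the spread of a pair alone. The ranges of SCN and LGN were separate, as given above. For miR-9-3p, 21 of 25 pairs differed. No call separated the SCN, LGN and retina from each other, nor the choroid from the sclera. The retina was above the choroid by 2.24 ± 0.37 on the log2 scale. For miR-9-5p, 16 of 19 pairs differed, and the exceptions were the 3 pairs among SCN, LGN and retina. Its called pairs with the cornea, iris, lens and sclera set detections against floors, as did those of miR-9-3p with the lens. The cornea detected miR-9-3p on 1 of 3 arrays, so that the called pairs of miR-9-3p with the cornea rest mostly on floors. The iris was called below the choroid at −2.22 ± 0.30 for miR-9-5p, where the bound was only 1.23-fold. For miR-124-5p, the 7 pairs that could be called set retina detections against floors, and the retina alone brought the arm past the filter. Without this arm, 61 of 72 combinations were called.

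The ratio of arms on 1 array needs no scaling. Its absolute value holds the efficiency of the probes of both arms, so that only its change between arrays can be read. The ratio of miR-124-3p over miR-124-5p was 259 ± 31.5, 206 ± 24.5 and 264 ± 32.3 on the normal, 0 D and −30 D retina arrays. In the brain, where miR-124-5p was detected once, it was at least 149 to 209 in the SCN, and in the LGN at least 286 and 274 on the normal and −30 D arrays and 560.2 ± 168 on the 0 D array. These 2 LGN bounds lay above the 3 retina values, but above the highest of them by less than its error.

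The ratio of miR-9-3p over miR-9-5p was 13.9 ± 0.841 (SD, n = 3) in the retina, 17.6 ± 1.62 in the SCN and 16.8 ± 1.12 in the LGN. The 3 retina arrays (14.4, 12.96 and 14.5) lay below the 6 brain arrays (15.5 to 18.9). The log2 difference was −0.30, with a two-sided exact permutation p of 0.012, the smallest that 3 against 6 arrays allow, and a Benjamini-Hochberg p of 0.027 over the 9 ratio tests. Leaving out a lens group left the value between −0.32 and −0.28, where the exact test gave p between 0.067 and 0.13. With arrays permuted only within their lens group, taken here as the slide, the exact p was 0.037, the smallest possible, and 0.083 when adjusted, so that the call was lost. On the choroid arrays the ratio was 24.3 ± 4.98, 23.7 ± 6.38 and 28.8 ± 7.37, higher than on all 9 neural arrays (log2 difference of neural over choroid −0.67, exact permutation p = 0.0045, adjusted 0.027). That difference was −0.25 with the brightest probe of each arm (p = 0.077 by the exact permutation test) and 1.14 with normexp background correction. Within the lens groups its exact permutation p was 0.016, or 0.083 when adjusted, without a call, and only 1 probe of miR-9-5p was counted in the choroid.

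The ratio of miR-124-3p over miR-9-5p was 187 ± 27.1 in the retina, 18.4 ± 2.51 in the SCN and 27.4 ± 0.700 in the LGN. The retina exceeded the brain regions by 3.05 on the log2 scale (exact permutation p = 0.012, adjusted 0.027). The ratio of miR-124-3p over miR-9-3p, added after the data were seen because miR-9-3p was detected in more tissues, was 13.4 ± 1.20 in the retina, 1.63 ± 0.111 in the LGN and 1.04 ± 0.078 in the SCN. Retina and brain differed by 3.35 (exact permutation p = 0.012, adjusted 0.027). Permuted within the lens groups, the retina differences of both ratios had an exact p of 0.037, or 0.083 when adjusted, and were no longer called. The 3 LGN arrays (1.55, 1.76 and 1.59) were above the 3 SCN arrays (1.13, 0.985 and 1.01), where 3 against 3 arrays cannot give an exact permutation p under 0.1, the value found. Outside the neural tissues, the ratio was 4.44 ± 0.890 in the choroid, 3.85 ± 1.27 in the sclera and 2.19 ± 0.415 in the iris, means that lie between those of the brain regions and the retina. In the lens, where miR-9-3p was undetected, it was at least 3.92, 13.8 and 14.05 on the normal, 0 D and −30 D arrays, beside 14.4, 12.02 and 13.7 in the retina.

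**Figure D2:**
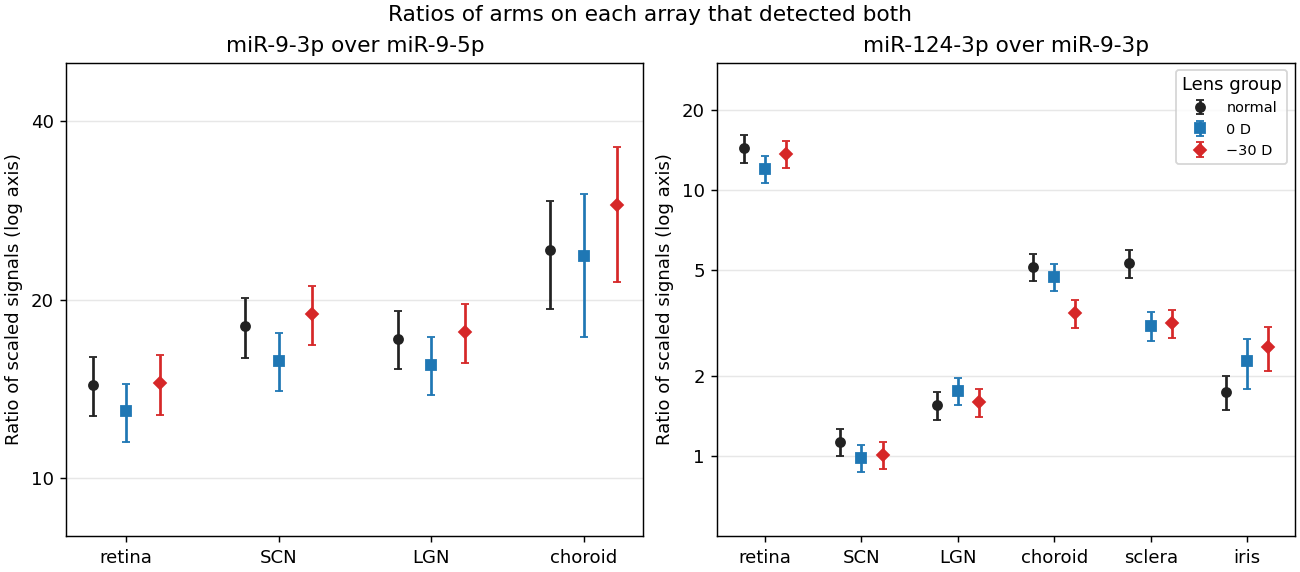
Ratios of scaled signals (log axis) on arrays that detected both arms, 1 point per array with the propagated probe error, colors by lens group. On the left, miR-9-3p over miR-9-5p lies lower on the 3 retina arrays (12.96 to 14.5) than on the 6 brain arrays (15.5 to 18.9); on the right, miR-124-3p over miR-9-3p is between 12.02 and 14.4 in the retina and between 0.985 and 1.76 in the SCN and the LGN.

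The levels of the arms in the choroid, sclera and lens were set beside those of the retina of the same lens group, together with miR-183-5p, miR-96-5p and miR-182-5p, members of 1 cluster known from photoreceptors and other sensory cells. In bulk tissue, fewer cells of a type and less RNA per cell cannot be told apart. In the choroid, miR-124-3p was at 8.63% ± 1.1, 6.94% ± 0.88 and 5.59% ± 0.71 of the retina in the normal, 0 D and −30 D groups. miR-183-5p was at 9.27%, 6.90% and 5.84%, miR-96-5p at 8.48%, 6.32% and 5.33% and miR-182-5p at 6.80%, 5.50% and 4.53%. The order of the 3 groups was the same for all 4 of these miRNAs. miR-9-3p was higher relative to the retina, at 24.1% ± 2.7, 17.7% ± 2.0 and 22.2% ± 2.5.

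In the sclera, miR-124-3p was at 5.15%, 3.32% and 3.15% of the retina and miR-183-5p at 6.78%, 2.97% and 3.67%, while miR-9-3p stayed at 13.9%, 12.9% and 13.6%. In the lens, miR-124-3p was at 0.920% ± 0.13, 2.96% ± 0.38 and 3.83% ± 0.49. There, miR-183-5p was at 0.792%, 2.14% and 3.01% and miR-96-5p at 0.948%, 2.22% and 3.16%. Undetected in the lens were miR-182-5p and miR-9-3p, with limits between 3.60% and 4.79% and between 2.58% and 3.73%, above the levels of the others in the normal group. The summed signal of the 3 cluster members ran from 131 to 427 in the lens, 813 to 1436 in the choroid and 441 to 1094 in the sclera, against 14498 to 16170 in the retina. In the SCN and the LGN, miR-96-5p and miR-182-5p were undetected on all arrays. miR-183-5p was detected there on the normal arrays alone, at 8.21 and 3.97. The brain levels of miR-124-3p thus came with next to no detected signal of this cluster. In the cornea, the cluster stood higher relative to the retina than miR-124-3p, which was at 0.177%, 0.251% and 0.238%, beside 0.907%, 0.894% and 0.988% for miR-183-5p, 2.05%, 2.03% and 2.0% for miR-96-5p and 5.33%, 4.99% and 4.47% for miR-182-5p. In the iris, miR-124-3p was at 0.293%, 0.111% and 0.230% and miR-183-5p at 0.141%, 0.124% and 0.217%. The part of retinal RNA in the levels outside the retina was not tested.

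**Figure D3:**
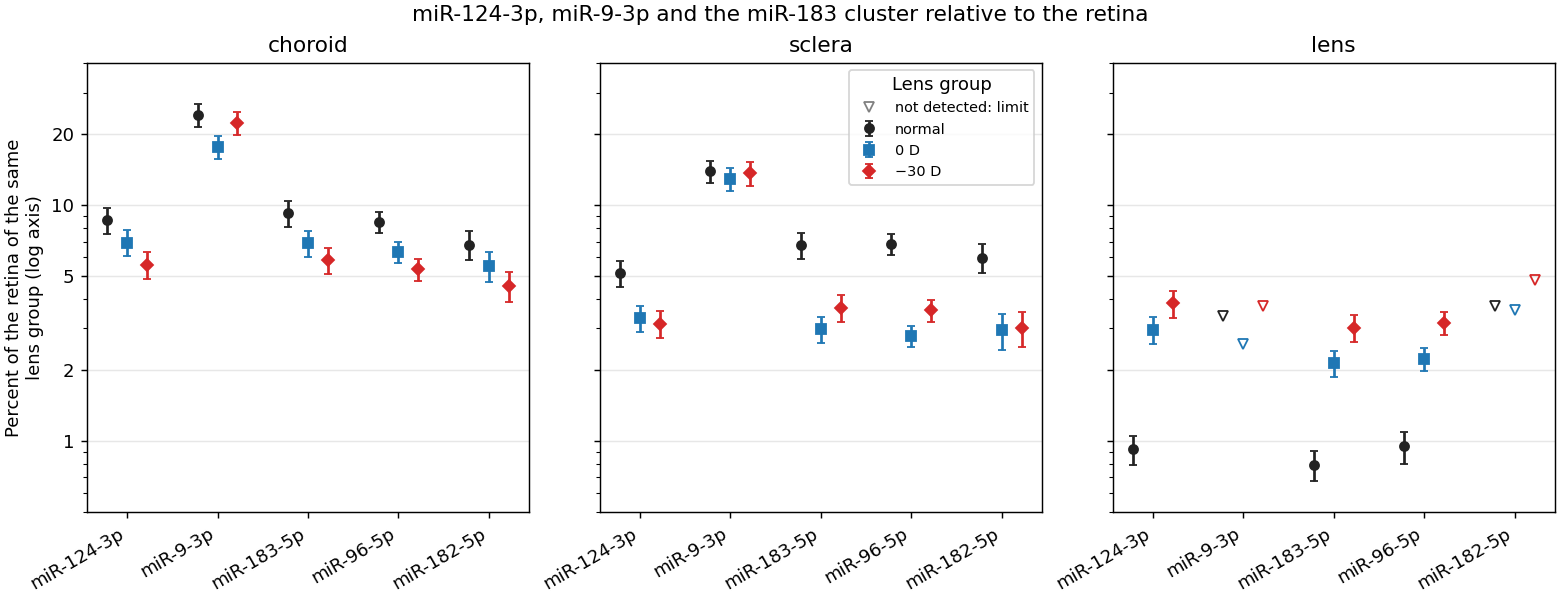
Signal in the choroid, sclera and lens as a percentage (log axis) of the retina of the same lens group for miR-124-3p, miR-9-3p and the 3 members of the miR-183 cluster, 1 point per array with the propagated error; open triangles are limits of undetected miRNAs. In the lens, miR-124-3p, miR-183-5p and miR-96-5p all lie between 0.792% and 0.948% in the normal group and between 2.14% and 3.83% in the others, and in the choroid and the sclera miR-9-3p stands above the rest.

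The lens groups were compared over all 8 tissues, with the tissue as a block, to look for a change common to the tissues. The 8 arrays of a group were taken as 1 slide, so that the effects of slide and worn lens cannot be told apart. For −30 D against normal, 0 of the 4 arms were called by limma, and 0% of all 352 miRNAs. The log2 differences were between 0.01 (miR-124-3p, 95% interval −0.52 to 0.54) and 0.10 (miR-9-3p, −0.38 to 0.58). For 0 D against normal, 0 arms and 0% of miRNAs were called, with differences between −0.19 (miR-9-3p) and 0.24 (miR-124-5p). For −30 D against 0 D, 0 arms and 1.99% of miRNAs were called, with differences between −0.16 (miR-124-5p) and 0.29 (miR-9-3p). At an unadjusted p of 0.05, 0 of the 4 arms passed in any of these comparisons, and 15, 23 and 35 of the 352 miRNAs did.

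Within a tissue, each group has 1 array, so that no test is possible and the ratio of 2 arrays was read by the criteria of the study. A change was called at a ratio over 2 or under 0.5 where both arrays detected the miRNA, and over 5 or under 0.2 where 1 did. An undetected miRNA was set to 0.1 here, a value that the methods of the study do not give. The lowest detected signal of any array was 1.09, so that every miRNA detected on only 1 of the 2 arrays was called. For −30 D over normal, 3 of the 20 combinations of arm and tissue with a detection were called, 2 higher and 1 lower, while 17.2% of all miRNAs in the 8 tissues were called. For 0 D over normal, 4 of 20 were called (2 higher, 2 lower; all miRNAs 15.6%), and for −30 D over 0 D, 3 of 21 (2 higher, 1 lower; all miRNAs 15.4%). These shares are near the background.

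The called changes lay in the lens, iris, cornea and LGN. In the lens, miR-124-3p was 3.72-fold the normal level in the −30 D group (log2 1.89 ± 0.21) and 2.95-fold in the 0 D group (1.56 ± 0.21). Both turned to lower than normal with the total signal that the files print per miRNA (log2 −2.05 and −2.19), which was 15.8 times the probe sum on the normal lens array. miR-183-5p was at 76.9, 268 and 182 on the normal, −30 D and 0 D lens arrays, and the part of retinal RNA in the ratio of miR-124-3p was not tested. In the iris, both miR-124-3p (log2 −1.52 ± 0.23) and miR-9-3p (−1.90 ± 0.29) were lower on the 0 D than on the normal array, a direction that the printed total signal turned for miR-124-3p (0.16). On the −30 D iris array, miR-9-3p was lower as well (−1.06 ± 0.27), and miR-124-3p differed from normal by −0.51 ± 0.22 without a call. Its −30 D iris array was 2.02-fold the 0 D array, also a call. The remaining calls were single detections near the limit, miR-9-3p on the −30 D cornea array and miR-124-5p on the 0 D LGN array.

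In the retina, SCN and LGN, 0 ratios of arms detected on both arrays were called. In the retina, the ratio of −30 D over normal was 0.894 for miR-124-3p, 0.879 for miR-124-5p, 0.934 for miR-9-5p and 0.939 for miR-9-3p. In the choroid and the sclera, miR-124-3p was at 0.579 and 0.547 of normal in the −30 D group, while miR-9-3p was at 0.867 and 0.921. The miR-124-3p ratios lay outside the error but within the criteria with the signals and scaling used here. The study, with ratios from GeneSpring, lists miR-124-3p as downregulated in the −30 D sclera. It also lists miR-124-3p as upregulated in the −30 D lens, a direction also called here with the probe sum. miR-9-3p is listed there as upregulated in the cornea and downregulated in the iris, as called here.

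**Figure D4:**
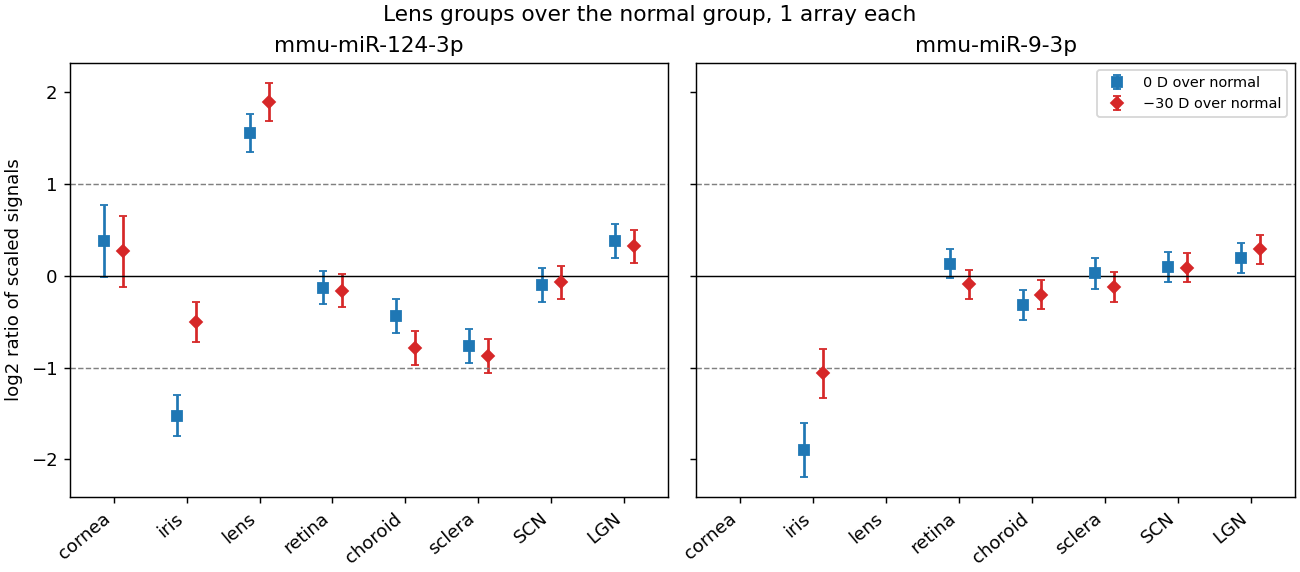
The log2 ratio of the 0 D and the −30 D array over the normal array of the same tissue for miR-124-3p and miR-9-3p, where both arrays detected the arm; bars are propagated probe errors of single arrays, and dashed lines mark the ratios of 2 and 0.5. miR-124-3p is above the upper line in the lens (1.56 and 1.89, but −2.19 and −2.05 with the printed total signal) and both arms are below the lower line in the 0 D iris, where the printed total signal gave 0.16 for miR-124-3p.

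A list of 10 other miRNAs known from neurons was set beside the arms. The list was chosen with earlier results known. All 10 were higher in the mean of the neural tissues, as were 37.5% of all miRNAs. Their median log2 difference was 3.31, beside one of −0.38 over all miRNAs. Neural arrays alone brought miR-137-3p, miR-138-5p, miR-153-3p and miR-383-5p past the filter, so that their differences are set against floors. This also holds for miR-7a-5p, except on 1 choroid array, its only detection outside the neural tissues. In the lens, miR-212-3p (126 to 127) was above the SCN (44.4 to 50.5), and miR-218-5p (65.8 to 72.5) was above the retina (10.9 to 16.2). Against the brain regions, 1 was higher in the retina and 9 were lower, as were 24.1% and 38.9% of all miRNAs, with a median of −2.46, beside −0.27 over all miRNAs. The one that was higher, miR-129-5p, differed by 0.96 ± 0.23, less than miR-124-3p did, and miR-128-3p, enriched in brain neurons, differed by −3.34 ± 0.33. miR-137-3p and miR-383-5p were undetected in the retina. Between the SCN and the LGN, 4 of the 10 were higher in the SCN, near the 33% of all miRNAs that were, with miR-7a-5p at 4.36 ± 0.53 and miR-137-3p at 2.04 ± 0.32.

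Apart from the 4 arms themselves, the miRNAs whose log2 signal over the 24 arrays was most like that of miR-124-3p were miR-129-5p (Pearson r = 0.86), miR-129-2-3p (0.83) and miR-181a-5p (0.79). Those most like miR-9-5p were miR-129-1-3p (0.97), miR-598-3p (0.96) and miR-551b-3p (0.96). These correlations describe 24 arrays that share slides and, for part of them, pooled mice, with undetected values at the floor of the array. Among the arms themselves, r was 0.86 between miR-124-3p and miR-9-3p, 0.81 between miR-9-5p and miR-9-3p and 0.42 between miR-124-3p and miR-124-5p.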

How the data were processed

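Total RNA of each sample was labeled with Cy3 and applied to 1 array of 30 spots per miRNA. The deposited scanner files hold intensities that the authors made with Feature Extraction 10.7.1.1, which subtracts the background and writes a total signal and its error for each probe. A miRNA counts as detected in these files where at least 1 probe signal is above 3 times its error. The log2 scaling factors of the arrays were between −1.65 and 1.01. Per the file headers, the files also print a total signal per miRNA. For the 4 arms it differed from the probe sum by over 1% on 8 of 59 detected values, by factors of 3.72 to 561, and the sum was used. A deposited table of normalized values was not used here.

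Tissue and lens group were fitted together over 24 arrays with limma 3.58.1 in R 4.3.3 (lmFit, eBayes), with Benjamini-Hochberg adjustment over 352 miRNAs, for pairs over 352 miRNAs and 28 pairs together, and a threshold of 0.05. The fit was tested on simulated data. Ratios of arms were compared by two-sided exact permutation tests, over all arrays and within the lens groups. For bounds, an undetected arm was set to the higher of the lowest detected scaled signal of its array and its probes at 3 errors. Scaling, floor, filter, background correction, probe choice and left-out groups were varied. The named miRNAs were the arms, the 3 most correlated with miR-124-3p and with miR-9-5p, a list of neuronal miRNAs and markers of cell types. The members and lists were chosen with earlier results of these data known. Python 3.11.15, scipy 1.17.1 and matplotlib 3.10.9 were used.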

Additional observations from a re-analysis of the deposited data

Results flagged for a closer look

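The miR-124-3p signal moved in opposite directions between tissues on both lens arrays, relative to the normal array and beyond 2 probe errors, a limit chosen after seeing the data. In the lens, the log2 ratio over normal was 1.89 for −30 D and 1.56 for 0 D. In the iris it was −0.51 and −1.52, in the choroid −0.79 and −0.44, and in the sclera −0.87 and −0.76. With the printed total signal, the lens values turned to −2.05 and −2.19 and that of the 0 D iris to 0.16, while the −30 D iris was at 1.41. On the normal, 0 D and −30 D arrays, miR-183-5p of photoreceptors was at 76.9, 182 and 268 in the lens, 900.0, 588 and 520.0 in the choroid, 658, 253 and 327 in the sclera and 13.7, 10.6 and 19.3 in the iris, and its part in these ratios was not tested. Each value compares 1 array with 1 array, so that the difference between tissues was not tested.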

How the results depend on the processing

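The 24 arrays give 1 value per tissue and group, dim arms are limited by the detection limit of each array, and the effects of slide and worn lens cannot be told apart. Of 678 recomputed values, 387 of single arms and ratios and 165 of counts and tests kept their direction and their side of the threshold, or moved within the limits set.

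The count of arms lower in the retina than in the brain, 0 as reported, was 1 with quantile normalization, with undetected arms at 0.1 and with the printed total signal, and 2 with undetected arms at the highest detection limit, with normexp and in the fit to the 9 neural arrays. Of the 352 miRNAs, 137 were lower and 85 higher in the retina as reported, and 102 were lower with quantile normalization. The count of arms higher in the retina fell from 2 to 1 with the printed total signal, where miR-124-5p lost its call. Quantile normalization raised the count between SCN and LGN from 0 to 2, where 43 of the 352 miRNAs were higher in the SCN and 160 lower. As reported, 116 were higher and 26 lower. For the other settings the counts over all miRNAs are not given here. Called changes of −30 D over normal rose from 3 to 5 with the printed total signal, which gave −2.05 and −2.19 for miR-124-3p in the −30 D and 0 D lens and 0.16 in the 0 D iris. That value is not the probe sum on the normal lens array and on all 3 iris and cornea arrays. Quantile normalization turned miR-124-5p in neural tissue to −0.80.

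In the comparisons of tissues and of lens groups over tissues, the following changes of sign concerned values that were not called. Between retina and brain, miR-9-5p was 0.031 without scaling and 0.067 with quantile normalization. Between SCN and LGN, miR-124-5p was 0.20 with normexp and between −0.48 and 0.45 without 1 lens group. There, miR-9-5p was −0.30 with the percentile over all detected miRNAs, −0.30 without scaling and −0.43 with quantile normalization, and miR-9-3p was −0.24 with that percentile and −0.23 without scaling. For −30 D against normal, miR-124-3p was −0.051 with that percentile, −0.030 with quantile normalization, −0.028 in 6 ocular tissues and −0.00092 in the 5 without the retina. There, miR-124-5p was −0.023 at either other floor, miR-9-5p −0.0092 with that percentile and −0.036 at a floor of 0.1, and miR-9-3p −0.11 with quantile normalization. With 1 tissue left out, the same comparison ranged from −0.26 (without the lens) to 0.14 for miR-124-3p, from −0.050 to 0.16 for miR-124-5p, from −0.073 to 0.14 for miR-9-5p and from −0.13 to 0.27 for miR-9-3p. For 0 D against normal, miR-124-3p and miR-9-3p were 0.16 and 0.055 without scaling, and miR-9-5p was −0.021 in the 5 ocular tissues. With 1 tissue left out, miR-124-3p ranged from −0.31 to 0.13 and miR-9-3p from −0.32 to 0.057. For −30 D against 0 D, miR-124-3p was −0.026 with that percentile and −0.14 without scaling, and miR-9-5p was 0.0025 with quantile normalization and 0.071 in the 5 ocular tissues. With 1 tissue left out, miR-124-3p ranged from −0.041 to 0.15 and miR-9-5p from −0.15 to 0.13. The cause of these changes was not tested.

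For ratios of arms, leaving out a lens group gave −0.32 to −0.28 for miR-9-3p over miR-9-5p, 3.01 to 3.12 for miR-124-3p over miR-9-5p and 3.31 to 3.44 for miR-124-3p over miR-9-3p between retina and brain, where 2 against 4 arrays cannot pass the threshold. Between neural tissue and choroid, miR-9-3p over miR-9-5p, called at −0.67, was −0.25 with the brightest probe and −0.25 with all probes, neither called, turned to 1.14 with normexp, and was −0.73 to −0.63 without 1 lens group. Normexp also gave 0.66 for miR-124-3p over miR-9-5p (−1.30 as reported) and 0.32 for miR-124-3p over miR-9-3p between neural and other tissues (−0.07), and −0.010 for miR-9-3p over miR-9-5p between SCN and LGN (0.06). miR-124-3p over miR-9-3p between neural and other tissues was 0.043 with all probes, and between −0.26 and 0.026 without 1 lens group.

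The share of calls that were higher in neural tissue was 42.7%, and 31.1% with quantile normalization, 49.2% with that percentile and 56.5% without scaling. It was 38.3% for the retina against the brain, and 61.7% with quantile normalization and 49.0% without scaling. It was 81.7% for SCN over LGN, and 21.2% with quantile normalization, 56.4% with that percentile and 55.1% without scaling. The replicate numbers are those of the lens groups, each of them taken as a slide of its own, and the limma fit holds them as a block. With the replicate block in the ratio tests as well, the 4 called ratios kept their values of −0.30, −0.67, 3.05 and 3.35 and lost their calls, each with a p of 0.083 by the exact permutation test, adjusted over 9 tests. Without the replicate block in the limma fit, miR-9-3p, miR-124-3p and miR-9-5p stayed called as higher in neural tissue, and 0 arms were called between SCN and LGN. The fit also called miR-124-5p in neural tissue, but its fitted value is no measure of neural tissue, as given above. The shares of all miRNAs called in this setting are not given here.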
